A study of Homo sapiens with 4 samples.

Results

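The mRNAs described here code for chromatin remodelers, Polycomb proteins and their close partners. They were chosen by a pattern of gene names, with earlier results of these data known. The pattern covered subunits of SWI/SNF (BAF and PBAF), ISWI, CHD, NuRD and INO80 complexes, and Polycomb repressive complexes 1 and 2 (PRC1 and PRC2). It also covered the CBX family and MBD, TET and DNMT3 proteins. The pattern found 89 of the 14911 genes listed in the count tables, and 45 of these 89 averaged 50 counts or more per library, the filter used below. The libraries are m6A-seq of HEK293T, a human embryonic kidney cell line, after X-ray treatment. Poly(A) RNA was sequenced before (input) and after pull-down with an antibody against N6-methyladenosine, m6A (IP), in cells with a control shRNA (shCTL) and in cells with an shRNA against the m6A demethylase ALKBH5 (shALKBH5, named shA5 here). All 4 libraries come from X-ray-treated cells, so no unirradiated group is compared. Each group has 1 library, so no difference has a replicate check, and neither the shRNA nor the time between irradiation and harvest is given in the labels.

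Chromatin remodelers use ATP to slide, evict or exchange nucleosomes, and work as large complexes built around 1 ATPase such as SMARCA4, SMARCA5, CHD4 or INO80. Polycomb complexes keep developmental genes silent: PRC2 methylates histone H3, CBX subunits of PRC1 bind that mark, and RING1 ubiquitinates histone H2A. HP1 proteins bind methylated histone H3 in heterochromatin, DNMT3 enzymes methylate DNA, and TET enzymes oxidise the methyl group. On mRNA, m6A is placed at RRACH motifs (where R stands for A or G and H for A, C or T), mostly near stop codons and in long exons, and GGACT is a frequent form of the motif.

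The CBX family shows the range found among the members, and its sequence context is therefore given first. In each of 6 CBX transcripts with enough counts, the GGACT nearest to the end of the coding sequence is shown with 8 bases on either side, 5′ to 3′ on the transcript strand, from hg38 with Gencode v44. The capitals mark GGACT. CBX2 and CBX8 lie near each other on chromosome 17, in transcripts that span chr17:79778148-79787983 and chr17:79792132-79797077.
CBX2 (chr17:79784908-79784928, plus strand, exon 5 of 5, coding): accagccaGGACTggaagccc
CBX8 (chr17:79795031-79795051, minus strand, exon 5 of 5, coding): cgaagacaGGACTcggacctg
CBX6 (chr22:38866368-38866388, minus strand, exon 5 of 5, coding): gaggctggGGACTggcgcccc
CBX7 (chr22:39133830-39133850, minus strand, exon 6 of 6, 3′ UTR): ttggggtgGGACTtccagaga
CBX1 (chr17:48070817-48070837, minus strand, exon 5 of 5, 3′ UTR): ataaataaGGACTgtgagaga
CBX5 (chr12:54246170-54246190, minus strand, exon 4 of 5, coding): ttgagagaGGACTggaaccag

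Whether these adenosines were methylated was not measured here, since the counts are per transcript. All 6 CBX transcripts hold the motif. The CBX2 transcript of 4628 bases holds 9 GGACT and 56 RRACH, and the CBX5 transcript of 11546 bases holds 9 and 131. Among the most counted transcripts of all genes above the filter, 93.3% of 5292 hold at least 1 GGACT on the transcript strand, overlaps with other motifs allowed, as do 44 of the 45 members. Every one of these transcripts holds an RRACH.

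Library totals were 1311390 to 3944402 counts, the lowest being the shA5 input, and the members took 0.953 to 1.09% of a library's counts. ALKBH5 itself, in CPM (counts scaled to equal library totals), fell from 217 to 111 between the inputs of shCTL and shA5, and from 363 to 187 between the IPs. Of 7 markers expected of HEK293T all were listed and 4 had over 3 counts in every library, with summed counts of 128 to 691. VIM was low, with 2 to 8 counts, and PAX2 had 0 to 1. Of 6 markers of other cell types 1 was listed, with 1 to 7 counts. The values below are counts in the order shCTL input, shCTL IP, shA5 input, shA5 IP. The m6A enrichment is log2 of IP over input CPM, each with 0.5 CPM added. Its change is the value in shA5 less that in shCTL, and intervals are exact 95% intervals that cover counting error only. A gene is called enriched or depleted where IP and input differ by at least 1.5-fold, and a positive change means a higher value in shA5.

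Subunits differed widely in whether they could be measured. Of the INO80, SRCAP and EP400 group 8 of 9 listed members passed the filter, of PRC1 10 of 15, of CHD and NuRD 11 of 17, of BAF and PBAF 5 of 15, of DNA methylation genes 4 of 8, of ISWI 2 of 7, of HP1 2 of 3, of other genes 3 of 12, and of PRC2 0 of 3. Among all genes listed, 35.7% passed. Several defining subunits were under the filter. SMARCA4 and SMARCA2, the BAF ATPases, had 13, 17, 12, 9 and 13, 19, 10, 13 counts. The PRC2 core subunits SUZ12 and EED had 4, 5, 9, 3 and 8, 3, 5, 0 counts, and JARID2, a PRC2 accessory subunit, had 36, 36, 12, 32. CHD4, the main NuRD ATPase, had 61, 43, 21, 29 counts. BPTF, the large subunit of the ISWI complex NURF, had 10, 32, 12, 33, ATRX, which deposits histone H3.3 with DAXX, had 22, 26, 5, 6, and HELLS, a remodeler needed for DNA methylation, had 2, 6, 2, 5. DNMT3B, a DNA methyltransferase, had 7, 15, 10, 10 counts and TET2 had 3, 1, 6, 11. Of the 44 members under the filter, 18 had a mean under 10 counts, 26 had a mean of 10 to 48, and SMARCA1 was at or under 3 counts in every library.

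These low counts went together with a property of the annotation. For each listed transcript the 50-base stretches found in no other annotated transcript of the same gene were counted. The median member above the filter had 1753 such transcript-specific stretches and the median member under it 335.5, while the numbers of annotated transcripts were 8 and 13.5. Over the 89 members the Spearman correlation of mean count with specific stretches was 0.51, and with the number of annotated transcripts it was −0.32, given as a description since genes share libraries. CHD4 has 54 annotated transcripts, and its 6 listed ones hold 9 specific stretches together. TET1, which oxidises methylated cytosine, has 1 annotated transcript with 9563 specific stretches and had 705, 1789, 368, 1329 counts. CHD1 had 0 specific stretches and still had 65, 274, 43, 192 counts. The rule used for reads shared between transcripts is not given in the sources used here, so a low count cannot be read as low expression, and the part of this property in the counts was not tested.

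**Figure D1:**
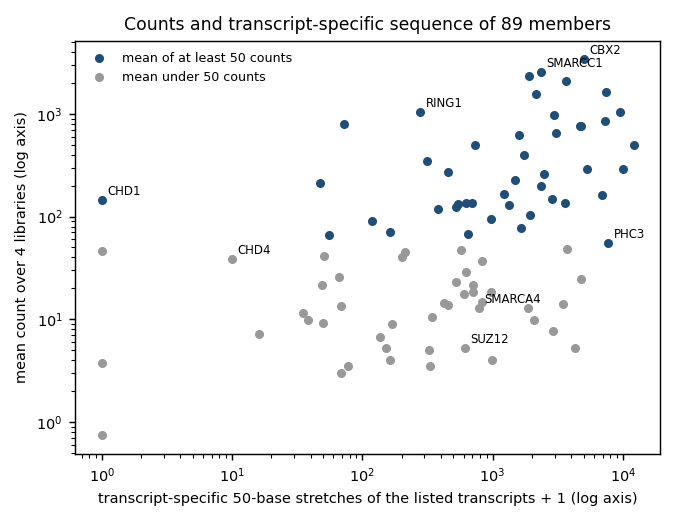
Each point is 1 of the 89 members, with its transcript-specific 50-base stretches plus 1 on the horizontal axis and its mean count over the 4 libraries on the vertical axis, both on log scales. Members under a mean of 50 counts (grey) had a median of 335.5 specific stretches against 1753 for the others (blue), while CHD1 passed with 0.

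Per kilobase of listed transcript, the input levels in shCTL were highest for SMARCC1 (211 CPM per kb), a core scaffold subunit of BAF, for CBX2 (185 CPM per kb) and for RING1 (158.9 CPM per kb). In the shA5 input the same 3 mRNAs had levels of 226, 164 and 190.1 CPM per kb. The lowest levels among members above the filter were those of ARID1B (2.72 CPM per kb), PHC3 (3.23 CPM per kb) and INO80 (3.30 CPM per kb). These levels rest on the transcripts that received counts, so they carry the limit just given.

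In shCTL cells, 10 of the 45 members were enriched in the IP, or 22.2%, beside 22.5% of all genes tested, and 14 were depleted, or 31.1%, beside 30.3%. The median m6A enrichment of the members was 0.02, beside −0.11 for all genes, and its SD over genes was 0.87 for both. The shares of the members as a list lay near the background. Group medians ran from −1.54 for HP1 (2 members) and −0.81 for DNA methylation genes (4 members) to 0.41 for CHD and NuRD (11 members) and 0.44 for BAF and PBAF (5 members). In shA5 cells 11 members were enriched (24.4%, beside 24.3% of all genes) and 11 were depleted (24.4%, beside 31.7%), with a median of 0.14 beside −0.10. Both medians depended on the filter: over the 71 members averaging at least 10 counts they were −0.14 in shCTL and −0.37 in shA5, beside −0.25 for all such genes in either population. In shCTL the median was also −0.04 with libraries thinned to the smallest total. Of the enriched members 7 were shared by both cell populations, which is 7 of 10 in shCTL and 7 of 11 in shA5, beside 83.2% and 77.0% of the enriched genes overall. Of the depleted members 10 were shared, which is 10 of 14 and 10 of 11, beside 86.9% and 83.0% of the depleted genes overall.

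**Figure D2:**
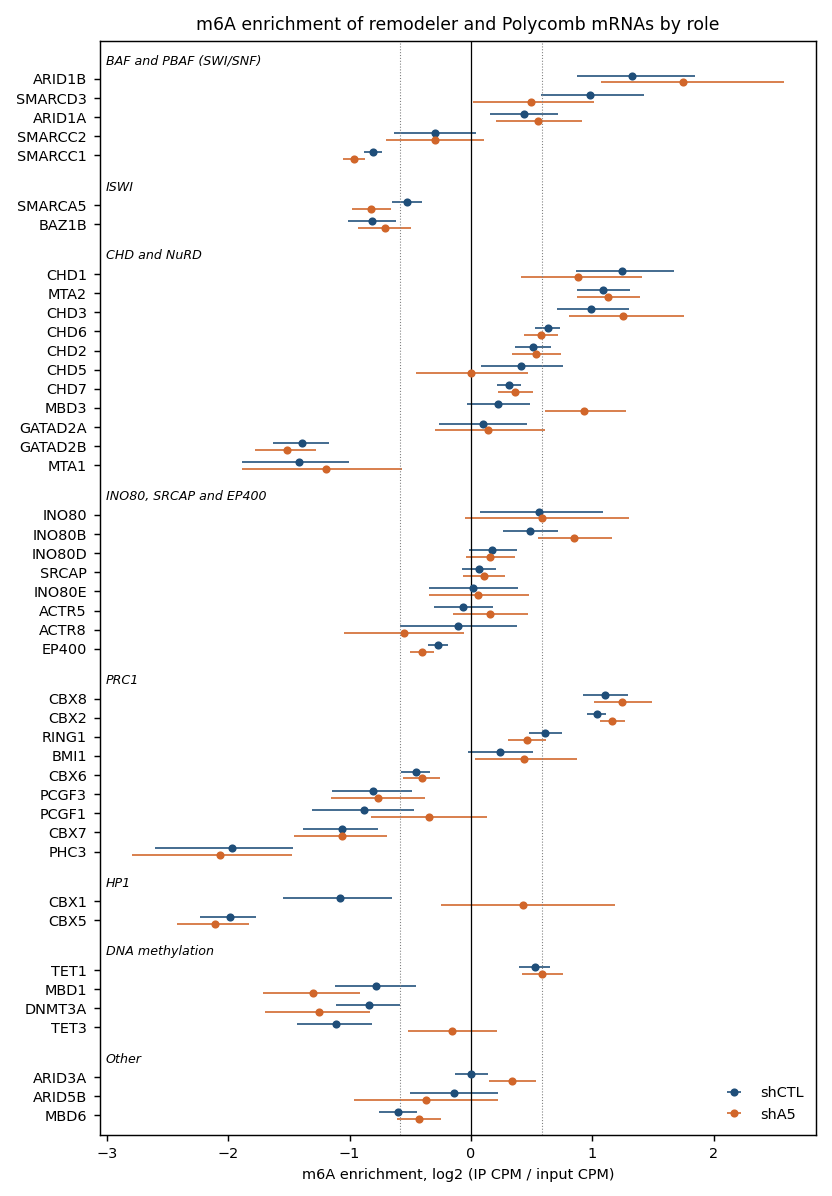
The m6A enrichment (log2 of IP over input CPM) of 44 members above the filter is plotted by role in shCTL (blue) and shA5 (orange), with exact 95% counting intervals and dotted lines at 1.5-fold. CBX2 lies at 1.04 and 1.16 and CBX5 at −1.99 and −2.11, while CBX1, TET3 and MBD3 lie farther to the right in shA5 than in shCTL.

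PRC1 had the widest spread of the groups, with mRNAs far to both sides of 0. CBX2, a PRC1 chromobox subunit that binds the PRC2 mark, had 1727, 6244, 870, 4684 counts and enrichments of 1.04 (0.96 to 1.11) and 1.16 (1.06 to 1.27). CBX8 had 304, 1154, 171, 976 counts, with 1.10 (0.92 to 1.29) and 1.25 (1.01 to 1.49). In both of these neighbouring genes both IPs lay above both inputs, and the changes of enrichment, 0.13 to 0.14, had intervals that reached 0.

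CBX6 and CBX7, which also code for PRC1 chromobox proteins, lie on chromosome 22. CBX6 had 994, 1277, 573, 1037 counts and was below 0 in both populations, at −0.46 (−0.58 to −0.34) and −0.41 (−0.56 to −0.26). CBX7 had 197, 165, 108, 123 counts and was depleted at −1.06 (−1.38 to −0.77) and −1.07 (−1.46 to −0.69). Their intervals did not overlap those of CBX2 or CBX8 in either population.

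Among the remaining PRC1 mRNAs, RING1, the E3 ligase, had 619, 1667, 434, 1433 counts and enrichments of 0.61 (0.48 to 0.75) and 0.46 (0.30 to 0.62). BMI1, the PCGF partner that activates RING1, had 171, 356, 64, 209 counts, with 0.24 (−0.03 to 0.51) and 0.44 (0.03 to 0.87). BMI1 shares 1000 bases with the annotated readthrough gene COMMD3-BMI1, so its reads may be split. PHC3, which multimerises PRC1 through its SAM domain, had 90, 39, 58, 32 counts and was the lowest of the group at −1.97 (−2.61 to −1.47) and −2.07 (−2.79 to −1.47). PCGF1 and PCGF3, which define variant PRC1 complexes, were depleted in shCTL at −0.88 and −0.81, and in shA5 stood at −0.35 (−0.83 to 0.13) and −0.76 (−1.15 to −0.38).

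**Figure D3:**
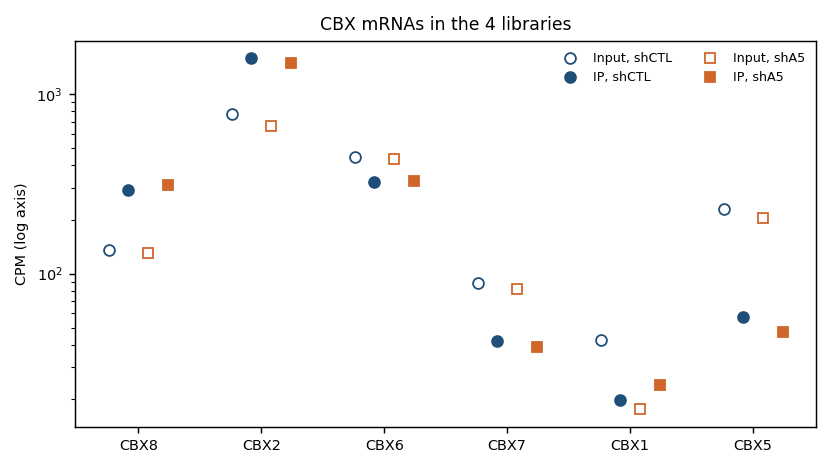
Each point is the level of 1 CBX mRNA in 1 library, in CPM on a log axis, with open symbols for inputs, filled symbols for IPs, circles for shCTL and squares for shA5. CBX8 and CBX2 have both IPs above both inputs, CBX6, CBX7 and CBX5 have them below, and CBX1 has its shCTL input above its other 3 libraries.

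Of the HP1 mRNAs, CBX5, which codes for HP1 alpha, was low in both populations. It had 515, 227, 269, 148 counts and the lowest enrichment of the 45 members in both populations, −1.99 (−2.23 to −1.77) and −2.11 (−2.42 to −1.83). CBX1, which codes for HP1 beta, had 95, 78, 23, 75 counts, and is described with the changes. CBX3, which codes for HP1 gamma, was under the filter with 13, 23, 14, 24 counts.

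In the BAF and PBAF group, ARID1B and SMARCC1 stood apart. ARID1B, the DNA-binding subunit that alternates with ARID1A, had 45, 202, 18, 149 counts and enrichments of 1.33 (0.88 to 1.85) and 1.75 (1.08 to 2.58). On its most counted transcript alone, with 36, 197, 10, 147 counts, the change of enrichment of ARID1B was 0.93 and that of its input −1.03, both past 1.5-fold, beside 0.42 (−0.45 to 1.37) and −0.53 (−1.43 to 0.27) for the gene. ARID1A had 152, 363, 86, 303 counts, with 0.44 (0.16 to 0.72) and 0.55 (0.20 to 0.92), and with libraries thinned to the smallest total its shCTL value was 0.07. SMARCD3, an accessory subunit known from heart and muscle, had 61, 214, 45, 153 counts and was enriched in shCTL at 0.98 (0.58 to 1.43), beside 0.50 (0.01 to 1.02) in shA5, a change whose interval of −1.15 to 0.18 holds 0. SMARCC1 had 3004, 3019, 1886, 2318 counts and was depleted at −0.81 (−0.88 to −0.74) and −0.97 (−1.05 to −0.88), and its paralog SMARCC2 had 126, 181, 80, 156 counts, with −0.29 and −0.30. The PBAF subunits PBRM1 and ARID2 were just under the filter, and in both the IP counts were below the input counts, 66, 23, 45, 27 and 68, 29, 57, 31.

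NuRD subunits lay on both sides. MTA2, a scaffold for the histone deacetylases, had 220, 826, 150, 789 counts and enrichments of 1.09 (0.87 to 1.31) and 1.13 (0.88 to 1.39). Its paralog MTA1 had 111, 72, 41, 42 counts and was depleted at −1.42 (−1.89 to −1.0) and −1.20 (−1.88 to −0.57), so the intervals of the paralogs did not overlap in either population. GATAD2B had 383, 256, 289, 241 counts and was depleted at −1.39 (−1.63 to −1.17) and −1.52 (−1.78 to −1.27), while its paralog GATAD2A had 99, 187, 58, 154 counts with 0.10 (−0.26 to 0.47) and 0.14 (−0.30 to 0.61). MBD2, which recruits NuRD to methylated DNA, was just under the filter with 86, 32, 44, 30 counts. The motif context of MTA2 and of SMARCC1 is shown as the extremes of position among the transcripts examined, 5 and 1449 bases before the end of the coding sequence (stop codon included). Near and far positions were found on both sides, since the depleted CBX7 and CBX5 have GGACT 51 and 217 bases from that end and the enriched ARID1B 707 bases.
MTA2 (chr11:62593869-62593889, minus strand, exon 18 of 18, coding): gtcctggaGGACTgagcacct
SMARCC1 (chr3:47670677-47670697, minus strand, exon 19 of 28, coding): aagagaatGGACTgaacagga

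The 6 CHD ATPases above the filter had enrichments above 0 in shCTL, as had 2420 of all 5320 genes tested. Of those under the filter, CHD4 was below 0 in shCTL at −1.28 (−1.92 to −0.74). On few counts, CHD9 and CHD1L were also below 0, at −0.68 and −0.60, and CHD8 was above it, at 0.41. CHD1, which acts on transcribed genes, had 65, 274, 43, 192 counts and enrichments of 1.24 (0.86 to 1.67) and 0.89 (0.41 to 1.41). CHD3, an alternative NuRD ATPase, had 122, 430, 45, 260 counts, with 0.99 (0.71 to 1.30) and 1.25 (0.81 to 1.76). CHD6 and CHD2 had enrichments of 0.63 (0.53 to 0.73) and 0.51 (0.37 to 0.66) in shCTL and 0.57 and 0.54 in shA5. CHD7, a remodeler of developmental enhancers, had 1237, 2711, 549, 1699 counts, with 0.31 (0.22 to 0.41) and 0.37 (0.23 to 0.51), and CHD5 had 0.41 and 0.00.

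The INO80, SRCAP and EP400 group was the most even of those with over 3 members above the filter. Its SD of enrichment in shCTL was 0.29 over 8 members, beside 1.13 for the 10 of PRC1, and 0 of the 8 were enriched or depleted in shCTL, beside 22.5% and 30.3% of all genes. In shA5 2 of the 8, INO80B and INO80, were enriched, beside 24.3%, and 0 were depleted, beside 31.7%. Subunits outside the name pattern, described below, did not share this evenness. Their SD in shCTL was 0.53 over 9 of this group, 2 of them depleted, and 0.39 over 4 of PRC1. INO80, the ATPase, had 47, 123, 25, 91 counts with 0.56 (0.07 to 1.09) and 0.59 (−0.05 to 1.30). SRCAP, which loads the histone variant H2A.Z, had 630, 1162, 390, 1008 counts with 0.07 (−0.08 to 0.21) and 0.11 (−0.06 to 0.28). EP400, the ATPase of the TIP60 complex, had 2011, 2936, 1217, 2209 counts and was the lowest of the group in shCTL at −0.27 (−0.35 to −0.19). In shA5 EP400 was at −0.40 (−0.50 to −0.30), and ACTR8 was the lowest at −0.55 (−1.05 to −0.06). SRCAP overlaps an unnamed coding gene on its strand over 10136 bases, and its values carry that limit.

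Both ISWI members above the filter were below 0 in both populations. Of all 5320 genes tested, 2900 were below 0 in shCTL and 2855 in shA5. Under the filter and on few counts, BPTF was at 0.79 and 0.19, BAZ1A at 0.60 and 0.16, BAZ2A at 0.10 and −0.47, and BAZ2B at −2.27 and −0.83. SMARCA5, the ISWI ATPase, had 971, 1189, 536, 728 counts with −0.52 (−0.65 to −0.40) and −0.82 (−0.98 to −0.66). BAZ1B, its partner in the WICH complex, had 429, 430, 292, 428 counts with −0.81 (−1.01 to −0.62) and −0.71 (−0.93 to −0.49). Among DNA methylation genes, TET1 had enrichments of 0.53 (0.40 to 0.65) and 0.59 (0.42 to 0.76), whereas DNMT3A, the de novo methyltransferase, had 241, 236, 93, 93 counts and was depleted at −0.84 (−1.11 to −0.58) and −1.25 (−1.69 to −0.83). In the remaining group, ARID3A, a DNA-binding regulator, had 668, 1180, 301, 915 counts with 0.00 (−0.13 to 0.14) and 0.34 (0.15 to 0.53), and MBD6 had 637, 739, 390, 697 counts with −0.60 (−0.76 to −0.45) and −0.42 (−0.61 to −0.24).

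Relative to the other genes, the change of m6A enrichment between shCTL and shA5 was small for most members. Each library was scaled to its own total, so a rise or fall of m6A shared by all genes would not appear in these values. The median change was 0.04, beside 0.0036 for all genes, and its SD over genes was 0.37 for the members and 0.36 for all genes. The change was above 0 in 27 members (60.0%, beside 50.5% of all genes) and below 0 in 18. At 1.5-fold, 3 of the 45 members (6.67%) were higher in shA5, beside 5.38% of all genes, and 0 were lower, beside 5.09%. The 3 higher members were CBX1, TET3 and MBD3. Among the 71 members averaging at least 10 counts 5 were higher and 9 lower, beside 12.6% and 13.0% of all such genes, and among all 89 members 11 and 14, beside 22.7% and 21.4%. With libraries thinned to the smallest total 4 were higher and 3 lower, beside 8.10% and 7.84%. Each change of enrichment uses the input reads as its divisor, so it shares those reads with the change of input RNA.

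CBX1 had the largest change, 1.51 (0.70 to 2.41). Its enrichment was −1.08 (−1.55 to −0.65) in shCTL and 0.43 (−0.25 to 1.18) in shA5. The input level was 42.5 CPM in shCTL against 17.5 CPM in shA5, and the IP levels were 19.8 and 23.8 CPM. The IP change was 0.26 (−0.21 to 0.74) and the input change −1.25 (−2.0 to −0.61), and the shA5 input value rests on 23 counts. In 1 random draw that thinned every library to the smallest total, the shCTL enrichment of CBX1 was −2.33, its change of enrichment 2.70, its input change −1.31 and its IP change 1.39. That draw kept 11 of the 78 counts of CBX1 in the shCTL IP, or fewer than the 33.2% kept of the whole library, so how the change divides between input and IP rests on few counts.

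TET3, which oxidises methylated cytosine like TET1, had 198, 160, 92, 198 counts. Its enrichment was −1.12 (−1.43 to −0.82) in shCTL and −0.16 (−0.52 to 0.22) in shA5, and the change was 0.96 (0.48 to 1.45). Here the IP level was higher in shA5, by 0.63 (0.32 to 0.94), and the input change was −0.33 (−0.71 to 0.03). Nearly all of its counts were on 1 transcript of 12060 bases, which overlaps a noncoding gene on the same strand over 390 bases.
TET3 (chr2:74101123-74101143, plus strand, exon 12 of 12, coding): ccccaagaGGACTaacggtgt
MBD3 (chr19:1578275-1578295, minus strand, exon 5 of 5, 3′ UTR): ggcagtggGGACTgcctggtg

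The GGACT nearest to the end of the coding sequence is given above for TET3 and MBD3 since these are the members past 1.5-fold whose IP change also had an interval above 0. MBD3, the NuRD subunit related to MBD2, had 185, 381, 93, 428 counts, and its enrichment was 0.22 (−0.03 to 0.49) in shCTL and 0.93 (0.61 to 1.28) in shA5. The change was 0.71 (0.29 to 1.14), with an IP change of 0.49 (0.29 to 0.70). It was 0.56 when all libraries were thinned to the smallest total, and 0.44 on the transcript with most counts alone, both under 1.5-fold. MBD3 shares 767 bases with an unnamed coding gene on its strand.

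Among members averaging at least 200 counts, the next largest positive changes of enrichment were those of INO80B (0.36, −0.02 to 0.75), ARID3A (0.34, 0.10 to 0.58), CHD3 (0.26, −0.29 to 0.84) and ACTR5 (0.22, −0.18 to 0.62). On its most counted transcript alone the change of CHD3 was −0.21. INO80B and ACTR5 are INO80 subunits, and INO80B shares 1096 bases with the readthrough gene INO80B-WBP1. The largest negative changes were those of SMARCA5 (−0.30, −0.50 to −0.09), SMARCC1 (−0.16, −0.27 to −0.04), RING1 (−0.15, −0.36 to 0.06), EP400 (−0.13) and GATAD2B (−0.13). All 9 were under 1.5-fold. The intervals of ARID3A, SMARCA5 and SMARCC1 did not hold 0, that of EP400 ended at it (−0.26 to −0.00), and those of the other 5 held it.

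**Figure D4:**
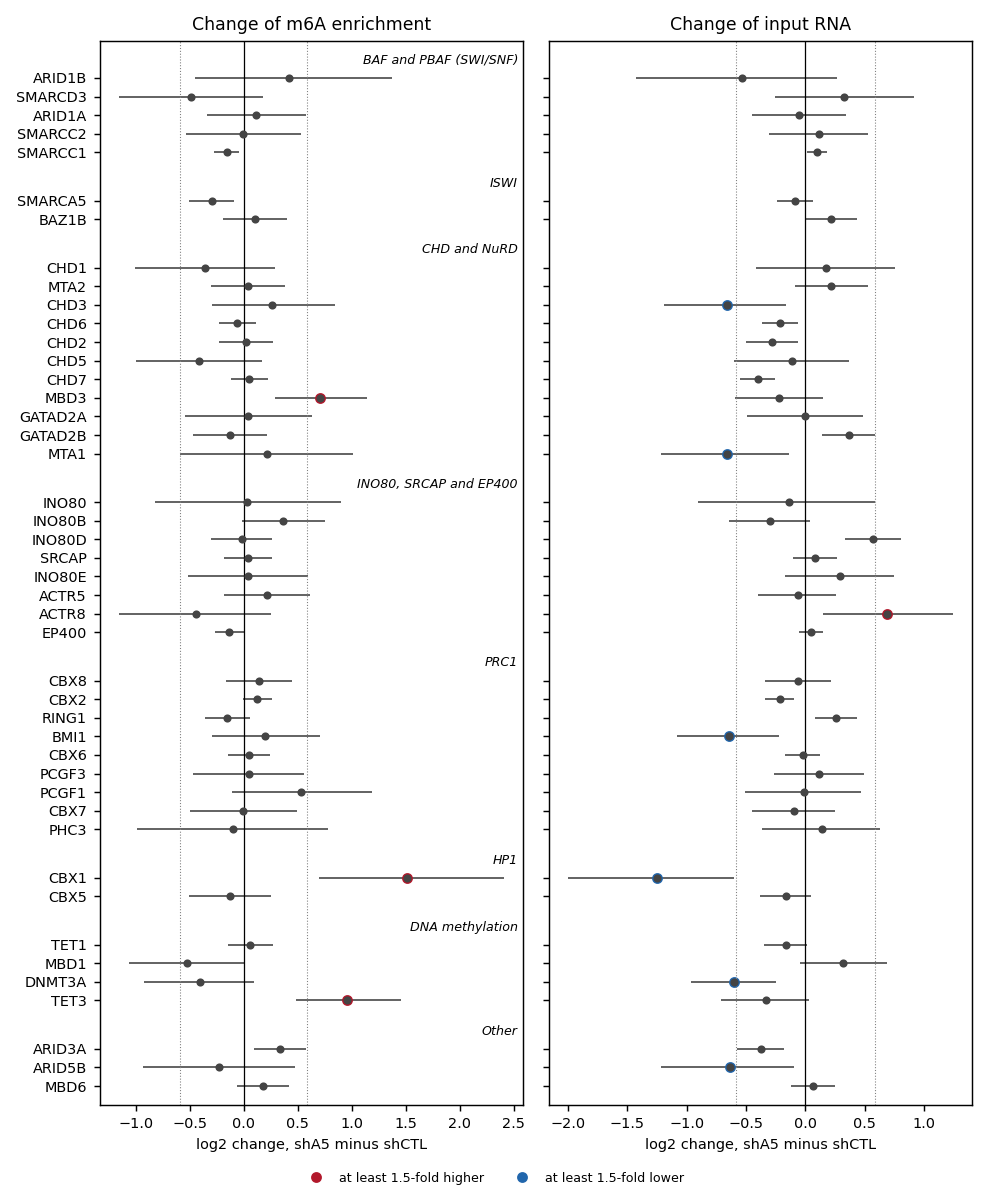
The change of m6A enrichment (left) and of input RNA (right), shA5 minus shCTL on the log2 scale, is plotted for 44 members with exact 95% counting intervals and dotted lines at 1.5-fold. CBX1 (1.51), TET3 (0.96) and MBD3 (0.71) are past the line on the left, and CBX1 (−1.25) has the lowest value on the right.

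In the inputs more members were lower than higher at 1.5-fold. Of the 45 members 6 (13.3%) were lower in shA5, beside 6.43% of all genes, and 1 (2.22%) was higher, beside 3.44%. The median change was −0.07, beside −0.02, and 28 members (62.2%, beside 52.5% of all genes) were below 0 and 17 above. The balance rests on the filter, with 10 lower and 10 higher among the 71 members averaging at least 10 counts (beside 12.5% and 9.32% of all such genes), and 16 lower and 14 higher among all 89 (beside 19.9% and 15.3%). Fewer cells with an mRNA and less of it per cell cannot be told apart in these libraries.

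The 6 lower members come from 5 groups. After CBX1 they are CHD3 at −0.66 (−1.19 to −0.16), from 54.5 to 34.3 CPM, MTA1 at −0.66 (−1.22 to −0.14), from 49.6 to 31.3 CPM, BMI1 at −0.64 (−1.08 to −0.22), from 76.4 to 48.8 CPM, ARID5B at −0.64 (−1.21 to −0.10), from 46.5 to 29.7 CPM, and DNMT3A at −0.60 (−0.96 to −0.25), from 108 to 70.9 CPM. On its most counted transcript alone CHD3 was at −0.22, under 1.5-fold. CHD3 and MTA1 are both NuRD subunits, and ARID5B is a DNA-binding partner of a histone demethylase. The IP levels of DNMT3A and ARID5B were also at least 1.5-fold lower, by −1.01 (−1.38 to −0.67) and −0.87 (−1.30 to −0.47). In the IPs 2 members (4.44%) were lower, beside 4.89% of all genes, and 1 (2.22%), TET3, was higher, beside 2.58%. The shA5 input counts behind the 6 lower values were 23 to 93.

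ACTR8, an actin-related INO80 subunit, was the 1 member with input RNA at least 1.5-fold higher, at 0.69 (0.15 to 1.24), with 60, 98, 57, 93 counts. INO80D, with 320, 638, 278, 745 counts, stood just inside the threshold in both kinds of library, at 0.57 (0.33 to 0.80) in the inputs and 0.55 (0.39 to 0.70) in the IPs. GATAD2B was at 0.36 (0.14 to 0.59), RING1 at 0.26 (0.08 to 0.44), MTA2 at 0.22 (−0.09 to 0.52) and BAZ1B at 0.22 (−0.00 to 0.43). On the lower side and under 1.5-fold, CHD7 was at −0.40 (−0.55 to −0.25) and ARID3A at −0.38 (−0.58 to −0.18), each with an interval below 0.

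Listed transcripts of the same gene could also differ in enrichment. For 12 members, 2 transcripts had a mean of at least 25 counts each, and the pair was ordered by its values in shCTL. Intervals of the pair were apart for 7 genes in shCTL (58.3%) and for 5 in shA5 (41.7%), for 3 in both (25%), and the order was the same in shA5 for 9 of the 12 (75%). Among all 507 genes with such pairs these shares were 46.5, 34.5, 28.6 and 77.5%. The largest differences among the 12 pairs were those of CBX2, 1.89 in shCTL and 2.11 in shA5. CBX2 was counted mainly on ENST00000310942, at 1.07 and 1.21, while its ENST00000269399, with 57, 56, 37, 47 counts, was at −0.82 and −0.90. DNMT3A was at −1.32 and −1.80 on ENST00000264709 (200, 140, 77, 52 counts) and at 0.52 and 0.27 on ENST00000321117 (33, 84, 12, 35 counts). BAZ1B was at −1.29 and −0.93 on ENST00000339594 and at 0.06 and −0.07 on ENST00000404251. The gene-level values of these 3 mRNAs are therefore sums over transcripts that differ.

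In 6 genes the intervals of the pair were apart in 1 population and not in the other, in CHD3, MBD3, SMARCC2 and SRCAP in shCTL and in MBD1 and PCGF3 in shA5. In shCTL the CHD3 transcripts ENST00000358181 and ENST00000380358 were at −0.08 and 1.52, and in shA5 at 1.04 and 1.31. The MBD3 transcripts ENST00000434436 and ENST00000590550 were at −0.61 and 0.61 in shCTL and at 0.54 and 1.05 in shA5. Whether these pairs differ between the populations was not tested.

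**Figure D5:**
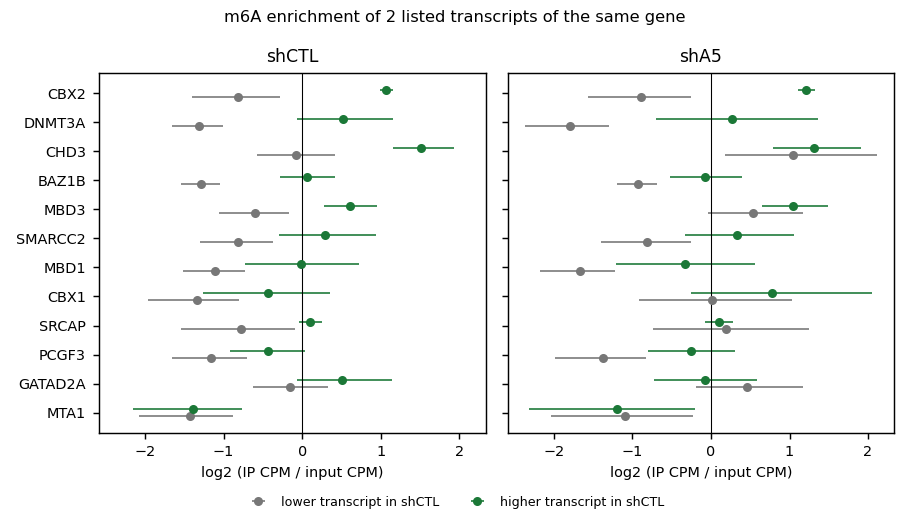
For the 12 members with 2 transcripts of at least 25 counts on average, the m6A enrichment (log2 of IP over input CPM) of the lower (grey) and the higher (green) transcript in shCTL is plotted in shCTL (left) and shA5 (right) with exact 95% counting intervals. CBX2, DNMT3A and BAZ1B keep their 2 transcripts apart in both panels.

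Transcript structure was set beside these calls. On the most counted transcript, the 3′ UTR made up a median of 25.1% of the 10 enriched mRNAs and 51.9% of the 14 depleted ones, beside 44.9% for all genes. GGACT density had medians of 0.874 and 0.738 per kb, beside 0.960, and 0.976 for the 21 members between the calls. GC content had medians of 56.7 and 52.0%, beside 51.4%, and 53.4% for those between. RRACH density had medians of 13.0 and 13.6 per kb, beside 13.3. Over the 45 members the Spearman correlation of enrichment in shCTL was −0.34 with the 3′ UTR share, 0.27 with GGACT density, 0.05 with RRACH density and 0.21 with GC content, and over all genes −0.10, 0.17, −0.04 and 0.36. These are descriptions across genes, which share the same 2 libraries.

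The part of the mRNA that sets the counted transcript apart from the gene's other transcripts also went with the calls, a comparison made after the values were seen. In the most counted transcript of the 14 depleted members a median of 98.7% of the specific 50-base stretches lay in the 3′ UTR, and in the 8 enriched members with such stretches the median was 18.9%. Over 90% lay there in 8 of the 14 depleted members (BAZ1B, CBX5, CBX7, DNMT3A, GATAD2B, MBD1, PHC3 and SMARCC1), in 0 of the 8 enriched ones, and in 4 of the 20 between (CBX6, CHD2, CHD5 and SMARCC2). In SMARCC1 it was 2321 of 2333 stretches, in CBX5 9683 of 9731 and in PHC3 7637 of 7637, beside 2649 of 9563 in TET1. Over all genes the same split held 1467 genes over 90%, of which 44.6% were depleted and 11.5% enriched in shCTL, and 3168 genes up to 90%, of which 22.7% were depleted and 29.1% enriched. The part of the counting rule in the depletion of these members was not tested.

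Subunits of the same complexes that the name pattern does not catch were set beside the members. Of 65 such partners listed 33 passed the filter. In shCTL 3 of the 33 (9.09%, beside 22.5% of all genes) were enriched, CHAF1A, EPOP and BCOR, and 9 (27.3%, beside 30.3%) were depleted, with a median of −0.17. In shA5 6 (18.2%, beside 24.3%) were enriched and 9 (27.3%, beside 31.7%) depleted. CHAF1A, a chromatin assembly factor that binds HP1, had 3460, 12492, 1599, 8096 counts with 1.03 and 1.08, and HDAC1, the NuRD deacetylase, had 2593, 2745, 1497, 2149 with −0.74 and −0.74. At 1.5-fold, enrichment was higher in shA5 for 3 partners (9.09%, beside 5.38% of all genes), AUTS2, UHRF1 and BCL7A, and lower for 3 (9.09%, beside 5.09%), CDK2AP1, BRD7 and RBBP4. CDK2AP1 and RBBP4 are NuRD subunits, with changes of −1.11 (−1.87 to −0.40) and −0.66 (−1.07 to −0.25). Both are opposite in sign to that of the NuRD member MBD3. For CDK2AP1 the input change was −0.28 and the IP change −1.39, and for RBBP4 they were 0.65 and −0.01. Of the other NuRD partners, HDAC1 and HDAC2 had changes of enrichment of −0.01 and −0.21. The NuRD members MTA2, GATAD2A, GATAD2B, MTA1 and CHD3 had 0.04, 0.05, −0.13, 0.22 and 0.26. EZH2, the PRC2 methyltransferase, was under the filter with 21, 24, 17, 23 counts, as were the 3 PRC2 members.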

How the data were processed

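Per the labels, m6A-seq libraries were made from poly(A) RNA of X-ray-treated HEK293T cells. For each of the 4 libraries the authors deposited a table of raw counts, as whole numbers for each Ensembl transcript, with no normalization. The submitters' processing notes name bcl2fastq 2.0, fastp 0.23.2, HISAT2, SAMtools 1.9, MACS2 and hg38, and the methods name StringTie for gene quantification. Whether StringTie wrote these whole-number counts, and with which annotation, strand setting and rule for shared reads, is not given in the sources used here.

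Counts were summed per gene name and divided by library totals (CPM). The log2 ratios used a pseudocount of 0.5 CPM, which pulls low values towards 0. The filter kept 5320 genes that averaged at least 50 counts. No p-value was computed, as each group has 1 library. Exact 95% intervals condition on summed counts, carry no pseudocount, and cover counting error only, since reads had no molecular identifiers. Steps were tested on simulated data. Of 28413 transcripts 27886 were found in Gencode v44, and 216 of 221 of the members'.

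Members, role groups, partners and markers were chosen with earlier results of these data known. Genes named are the highest and lowest enrichment per role group, the 5 largest rises and falls of enrichment and of input RNA at a mean of at least 200 counts, the 3 highest and lowest input levels per kb, and defining subunits. Others are in called sets, are paralogs or partners of named genes, or were chosen after their values were seen (GATAD2A, SMARCC2, SMARCD3, CHD2, CHD5, CHD6, CBX6, CBX7, PCGF1, PCGF3, MBD2, CBX3, EZH2, HDAC1, SMARCA1 and INO80D in the IPs). Alternatives were TMM (edgeR 4.0.16) and DESeq2 1.42.0 size factors, pseudocounts of 0.1 and 2 CPM, other filters, a 2-fold threshold, thinned libraries and single transcripts. Python 3.11.15, numpy 2.4.6, scipy 1.17.1, pandas 2.3.3, matplotlib 3.10.9 and R 4.3.3 were used. Peaks were not analysed here, and 1 member and 1 marker are counted but not reported by name.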

Additional observations from a re-analysis of the deposited data

Results flagged for a closer look

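For 2 of the 45 members the IP stood below the input in shCTL and above it in shA5, or 4.44%, beside 5.41% of all genes. CBX1 had m6A enrichments of −1.08 and 0.43, a difference of 1.51, and its shA5 input rests on 23 counts. ACTR5 had enrichments of −0.06 and 0.15, a difference of 0.22, and both of its intervals hold 0. With 1 library per group neither difference was tested against replicates.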

How the results depend on the processing

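The main values were 10 enriched and 14 depleted members in shCTL, 11 and 11 in shA5, 3 and 0 for higher and lower enrichment in shA5, 1 and 6 for higher and lower input RNA, and a median enrichment of 0.14 in shA5. With a mean of at least 10 counts (71 members), 25 and 28 were depleted in shCTL and shA5, the shA5 median was −0.37, and 5 and 9 changed in enrichment and 10 and 10 in input RNA, higher and lower. Without a filter (89 members) these values were 34, 35, −0.40, 11, 14, 14 and 16. With a mean of at least 200 counts (26 members), 5 and 5 were depleted, 1 was higher in enrichment, and 0 and 2 were higher and lower in input RNA. A 2-fold threshold gave 6 and 7 in shCTL, 6 and 7 in shA5, 1 higher in enrichment, and 0 and 1 for input RNA, beside 10.1, 16.9, 12, 18.4, 0.846, 0.470 and 1.15% of all genes. Thinned libraries gave 3 members lower in enrichment and 0 higher in input RNA. Other filters test other numbers of genes and the 2-fold threshold is stricter by construction; thinning was 1 random draw, and the cause was not tested. All genes moved too: 35.8% were depleted in shCTL with at least 10 counts and 21.7% with at least 200, and 12.6 and 1.65% were higher in enrichment.

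TMM factors, DESeq2 size factors, pseudocounts and the most counted transcript (42 members) kept these counts within 1.5 times and gave shA5 medians of 0.14 to 0.16. Of 558 values of single members under alternatives, 548 stayed within their counting intervals and 10 moved out. All 10 came from thinning or from the single transcript, since size factors and pseudocounts shifted values little. A gene with 1 listed transcript cannot move on the single transcript, so the 548 are not 548 separate checks. Signs changed in 9 of the 558, on 7 measures of which 0 had been past 1.5-fold, among them BMI1 (0.24 to −0.09) and ARID3A (0.00 to −0.14) in shCTL after thinning. Those that moved out were ARID1A, ARID3A, BMI1, MBD6 and CBX1 after thinning, where the change of CBX1 was 2.70 and ARID1A in shCTL was at 0.07, and BAZ1B, CHD3, DNMT3A and MBD3 on a single transcript. No paired analysis was possible because no group has a second library, and no replicate could be left out. The depth of the shA5 input, where 3 counts are 2.29 CPM, limits the members with under 100 counts there.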
